A study of Mus musculus with 106 samples.

Results

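Chemokines, their receptors and the atypical chemokine receptors were followed as a gene family through H3K27ac and H3K4me3 peak lists of mouse bone marrow progenitors and macrophages. Members were all protein-coding genes of the GENCODE M21 annotation whose symbol is Ccl, Cxcl, Ccr or Cxcr with a number, together with Cx3cl1, Xcl1, Xcr1 and Ackr1 to Ackr4. This gave 58 of 21938 protein-coding genes: 37 ligands, 17 receptors and 4 atypical receptors, with 145 annotated start sites. Cxcl11 is not among them because M21 annotates it as a polymorphic pseudogene, and Pf4, Ppbp, Cx3cr1 and Ccrl2 fell outside the symbol rule and were placed with the signalling genes described last.

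Chemokines are small secreted proteins that guide leukocytes along concentration gradients by engaging G protein-coupled receptors, while atypical receptors bind chemokines without that signal and take them up or move them across cells. Macrophages release many of them, such as Cxcl9, Cxcl10 and Ccl5, when interferon gamma and microbial products act together, and stem cells are held in the marrow through Cxcl12 and its receptor Cxcr4. H3K27ac marks active promoters and enhancers and H3K4me3 marks promoters that are active or poised. Many chemokine genes lie side by side as tandem copies, so a cluster can be read as a region as well as gene by gene.

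All animals were C57BL/6J mice. By the paper's methods they were 12 to 14 weeks old when assigned to the control or diabetic group, and older when tissue was collected. Diabetic mice had received streptozotocin (STZ), a toxin of pancreatic beta cells, at 42 to 45 mg/kg per day for 5 days and were hyperglycemic (blood glucose above 13.9 mmol/L) for 6 weeks; control mice had not. The cells labelled HSC were marrow depleted of cells bearing CD3, CD4, B220, Ter119 or Gr1, and so are a progenitor-enriched fraction rather than sorted stem cells. Bone marrow-derived macrophages (BMDM) from both kinds of mice were grown for 7 days in 5 mmol/L glucose with L929-conditioned medium, so that neither macrophage group was kept in high glucose, then replated and, per the labels, kept in medium (unstimulated) for 16 h or exposed for that time to LPS (bacterial lipopolysaccharide, 100 ng/mL) plus IFN-γ (interferon gamma, 10 ng/mL). Each mark had 35 libraries: 12 of HSC, 11 of unstimulated BMDM and 12 of LPS+IFN-γ BMDM, with 6 control and 6 diabetic libraries in each except for 5 diabetic unstimulated libraries, where replicate 3 had no list. The labels number the libraries without tying the numbers to animals, so the p-values below measure the spread between libraries.

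Each list holds the peaks called in 1 library against its own input, and lists ranged from 13730 to 277213 peaks (median 110154), with a promoter peak at 40.8 to 79.3% of genes. No read totals are in the lists and depth is unknown, so each gene was given a percentile rank from 0 to 100 within its library by the highest −log10 p of a peak within 1000 bp of any of its start sites. A gene with no such peak took the shared low rank of all unmarked genes, which was 13.2 to 21.6 in H3K27ac libraries and 10.3 to 29.6 in H3K4me3 libraries. Differences below are in percentile points, from limma over all genes with a promoter peak in at least 3 libraries of the mark (46 members of 17373 genes for H3K27ac and 44 of 17652 for H3K4me3), and a gene was called at a Benjamini-Hochberg adjusted p under 0.05 over all genes tested. In bulk chromatin, fewer marked cells and less of the mark per cell cannot be told apart. Marker genes followed the labels for macrophages: in HSC minus unstimulated BMDM, H3K27ac was lower at 5 of 7 macrophage genes (Mertk, Cd68, Cd14 and Csf1r among them) and higher at 4 of 7 stem and progenitor genes (Kit, Gata2, Myb and Hlf). For stimulation they were weaker, since 0 of 7 genes of activated macrophages passed the test (median difference 7.31 points). For H3K4me3, 2 of 7 macrophage genes were called lower in HSC than in unstimulated BMDM, and 0 of 7 stem and progenitor genes were called. With stimulation, 0 of 6 activated macrophage genes tested for H3K4me3 were called. An earlier reading of these lists placed 3 control H3K27ac libraries nearer to the opposite stimulation label (LPS+IFN-γ replicate 5 and unstimulated replicates 5 and 6). Here the mean rank of the 7 activation genes was 33.7 in that LPS+IFN-γ library, below the 37.1 to 63.0 of the other stimulated libraries, and 41.8 and 42.7 in those unstimulated libraries, within the 29.8 to 48.2 of the others. Counts of called members, and the values they change, are also given without all 3, except for promoters of 5000 bp. The 3 were singled out by their nearness to the opposite stimulation label in these same lists. Leaving them out therefore favours larger stimulation differences, at promoters, windows and clusters alike. For H3K4me3 the libraries of the same group and number were left out, although the doubt came from H3K27ac and the numbers are not tied to animals.

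Of the 58 members, 4 had a promoter peak in every library, 7 in none, and the rest in some. Cxcr4, the receptor that retains stem cells in marrow, Cxcl16, a membrane-bound ligand of Cxcr6, the thymus- and gut-homing receptor Ccr9 and its ligand Ccl25 had a promoter peak in all 70 lists. Those 4 of 58 compare with 30.3% of all genes marked in every list. Ccr1, Ccr2, Ccr3, Cxcl9, Cxcl13, Cxcl15 and Cxcl17 had a promoter peak in no list, as had 14.8% of all genes. Ccl12 and Ccl17 were without H3K4me3 in any library, and Ccl11, Ccl20 and Ccl26 without H3K27ac. Cxcl12, the ligand of Cxcr4, had H3K4me3 in 35 of 35 libraries and H3K27ac in 28 of 35. For Ccl25, Ccr9 and Cxcl16, and also for Ccl27a and Ccr10, a start site of another gene lies near enough for the promoters to overlap: Elavl1 at 124 bp, Slc6a20a at 343 bp, Zmynd15 at 25 bp, Il11ra1 at 1764 bp and Cntnap1 at 598 bp. A peak over these 5 promoters cannot be assigned to either gene of the pair.

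The H3K27ac lists of HSC held promoter peaks at 16 to 36 members (median 30), those of unstimulated BMDM at 16 to 34 (median 25) and those of LPS+IFN-γ BMDM at 19 to 37 (median 26). For H3K4me3 the medians were 16, 24 and 25 members in the same order. Both ranges overlapped between the cell states. In HSC, 17 members had H3K27ac but not H3K4me3 in most libraries, or 29.3% of the family against 6.24% of all genes. They were the ligands Ccl3, Ccl4, Ccl5, Ccl6, Ccl9, Ccl17, Ccl19, Ccl22, Cxcl10 and Xcl1, the receptors Ccr6, Ccr7, Ccr8, Cxcr2, Cxcr3 and Cxcr5 and the decoy receptor Ackr2. In unstimulated BMDM 6 members had that pattern (10.3% against 1.42%) and in LPS+IFN-γ BMDM 9 members (15.5% against 1.52%). The H3K4me3 lists of HSC held promoter peaks at 40.8 to 74.3% of all genes. Those of unstimulated and LPS+IFN-γ BMDM held them at 67.7 to 77.5% and 65.4 to 79.3%. The part of H3K4me3 peaks too weak to be listed in this pattern was not tested.

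**Figure D1:**
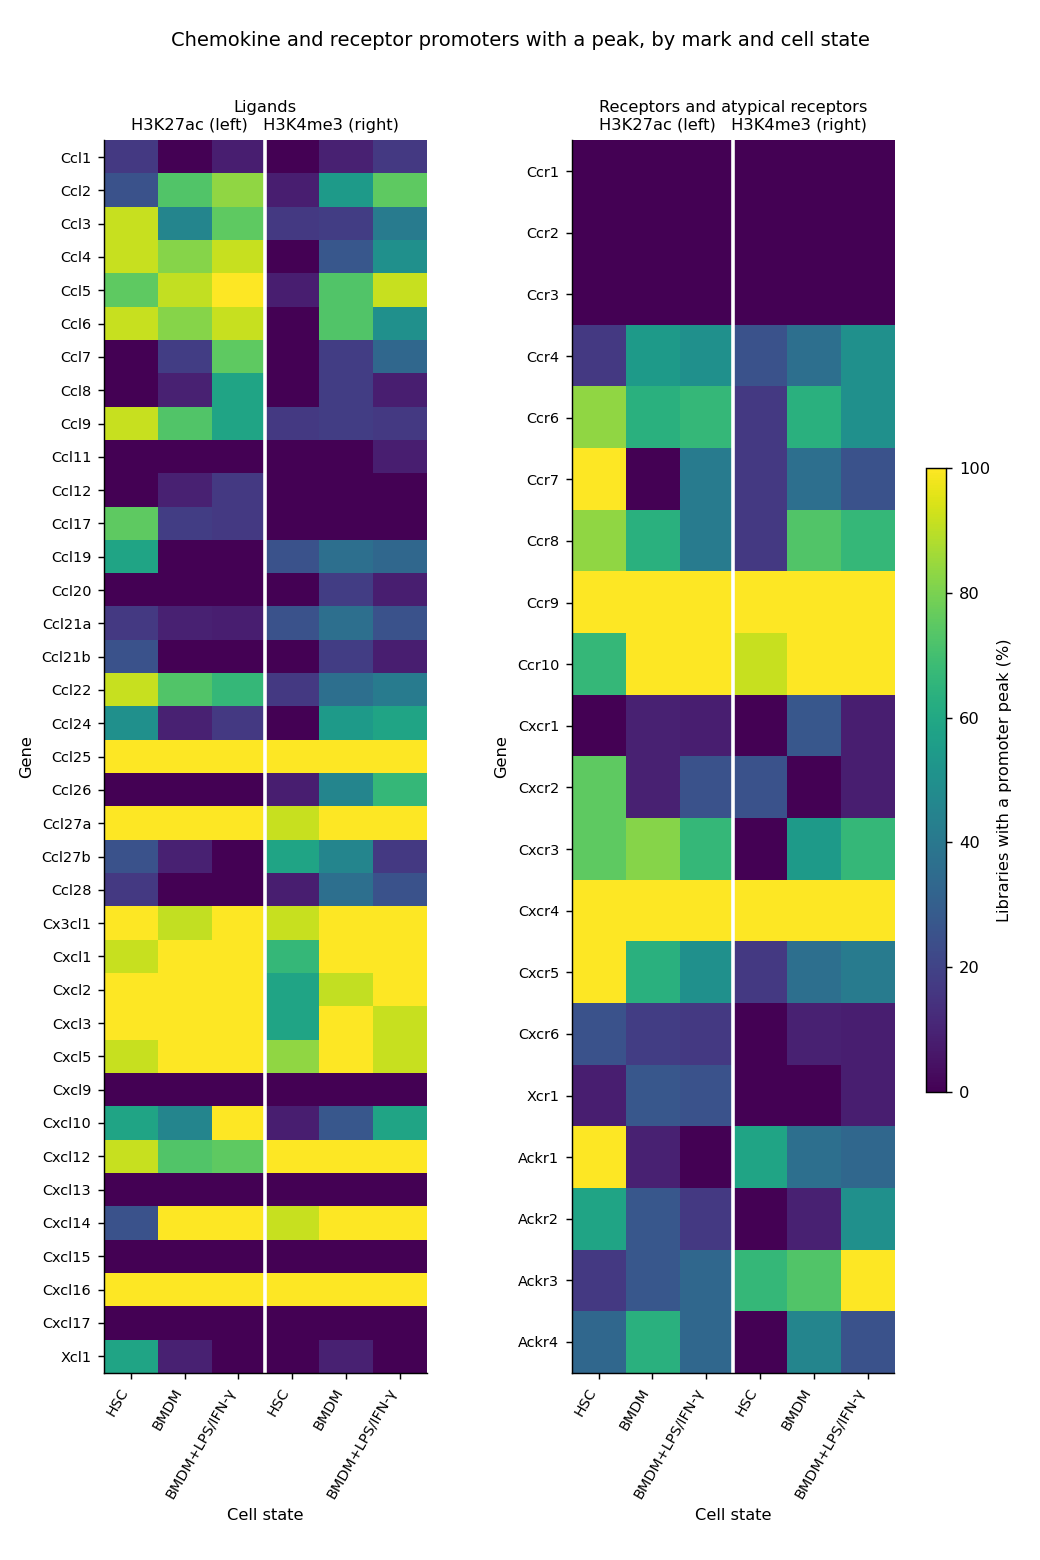
Share of libraries with a promoter peak (percent, colour scale) for each member drawn, by mark and cell state (12 libraries of HSC, 12 of LPS+IFN-γ BMDM and 11 of unstimulated BMDM), with members ordered by role. Ccl25, Ccr9, Cxcl16 and Cxcr4 are filled in every column, and 7 members, Ccr1, Ccr2 and Cxcl9 among them, are empty in every column.

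Stimulation with LPS+IFN-γ was compared with medium alone to ask which chemokine promoters gain or lose the marks in activated macrophages. H3K27ac rose at 3 inflammatory ligands and fell at 0 members. They were Cxcl10, an interferon-induced attractant of T cells, Ccl5, which recruits T cells and monocytes, and Ccl7, a monocyte attractant that binds Ccr2. Across all genes 1.10% were called higher and 1.21% lower. The median difference was 0.23 points over the 46 members and −0.17 over all genes, and 24 of the 46 members had a difference above 0.

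The promoter of Cxcl10 is shown because it had the lowest adjusted p of the family for stimulation (RefSeq, GRCm38.p6, chr5:92348840-92349139, minus strand, from 250 bases before to 50 after the start site). Capitals mark an interferon-stimulated response element core, searched as TTTCNNTTT on both strands, at position −212 from the start site, and NF-kB sites at −159, −104 and −103, of which the last pair overlap. Of 32851 RefSeq promoters of the same length, 10.6% hold the first motif and 8.46% the second; of the 44 members with an entry, 5 and 10 do. TATAAA and TTCNNNGAA, a STAT core, were searched as well and had no match here, while 13.6% and 8.30% of all promoters hold them and 12 and 3 of the members do. Ccl5 and Ccl7 are named without sequence.
Cxcl10: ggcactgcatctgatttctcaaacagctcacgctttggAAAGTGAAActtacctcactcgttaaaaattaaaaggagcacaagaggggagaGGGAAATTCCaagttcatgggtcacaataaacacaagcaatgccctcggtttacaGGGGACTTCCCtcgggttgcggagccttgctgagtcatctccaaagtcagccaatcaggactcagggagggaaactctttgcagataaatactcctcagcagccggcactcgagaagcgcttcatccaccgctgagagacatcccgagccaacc

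At the Cxcl10 promoter the H3K27ac rank ran from 14.4 to 47.1 with a median of 20.3 in unstimulated BMDM and from 34.8 to 59.9 with a median of 42.1 after LPS+IFN-γ. A peak was listed in 5 of 11 and 12 of 12 libraries. The ranges overlapped because 3 control unstimulated libraries, replicates 1, 3 and 6, were at 38.0 or above. The difference was 17.9 points (SE 3.93, adjusted p = 0.0101).

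Ccl5 ranked 20.3 to 58.5 (median 42.4) in unstimulated BMDM and 35.8 to 77.5 (median 55.9) after LPS+IFN-γ, with peaks in 10 of 11 and 12 of 12 libraries. A peak was thus already listed in most unstimulated libraries, and the promoter moved up the ranking by 16.8 points (SE 4.10, adjusted p = 0.0197). Ccl7 ranked 13.2 to 52.4 (median 16.6) and then 14.5 to 70.1 (median 45.4). Its peak was absent from 9 of 11 unstimulated libraries and present in 9 of 12 stimulated ones, and the difference was 19.0 points (SE 4.94, adjusted p = 0.0290). The Ccl7 call was lost without any 1 of 6 libraries (control unstimulated 2, 3 or 4, control LPS+IFN-γ 1 or 6, diabetic LPS+IFN-γ 3), whereas Cxcl10 and Ccl5 passed with each library left out in turn. With promoters of 500 bp neither Cxcl10 nor Ccl5 passed (adjusted p = 0.183 and 0.0755), and Ccl7 did. Ranked by fold Cxcl10 alone passed, with the top 20000 peaks of each list Ccl5 alone (Cxcl10 then had a peak in too few libraries to be tested), and by Fisher's exact test on the presence of a peak none of the 3 (4 members had an unadjusted p under 0.05).

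Other ligands, and the receptor Cxcr4, had smaller or less even differences. Ccl8, a monocyte attractant next to Ccl12, had a peak in 1 of 11 unstimulated and 7 of 12 stimulated libraries (difference 12.9 points, adjusted p = 0.0593). Ccl2, the main ligand of Ccr2, was marked in 8 of 11 and 10 of 12 libraries, with medians of 39.1 and 48.6 and a difference of 8.05 points (adjusted p = 0.398). Ccl3 and Ccl4, attractants of monocytes and T cells, differed by 7.52 and 7.09 points (adjusted p = 0.536 and 0.544). The neutrophil attractants Cxcl1 and Cxcl2 were marked in every BMDM library of both kinds, with differences of −6.32 and −0.13 points (adjusted p = 0.251 and 0.989). Cxcl12, Cxcl16, Cx3cl1 and Cxcr4 differed by −2.64, −2.25, 0.15 and −4.91 points, and none of the 4 passed the test (adjusted p from 0.603 to 0.986).

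Among receptors, Ccr7, which takes cells to lymph nodes, had a promoter peak in 0 of 11 unstimulated and 5 of 12 stimulated libraries (9.82 points, adjusted p = 0.0849). Cxcr2 and the scavenger Ackr3 differed by 4.61 and 1.85 points (adjusted p = 0.593 and 0.851). Without the 3 libraries in doubt 4 members were called higher, Cxcl10 (18.8 points, adjusted p = 0.00531), Ccl5 (21.02 points, adjusted p = 0.00143), Ccl7 (23.4 points, adjusted p = 0.00194) and Ccl8 (13.9 points, adjusted p = 0.0298), against a background of 2.84% higher and 3.63% lower. Those 3 libraries were picked by stimulation label in these same lists, so leaving them out favours such calls. Leaving out control LPS+IFN-γ replicate 2 alone gave 5 calls.

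**Figure D2:**
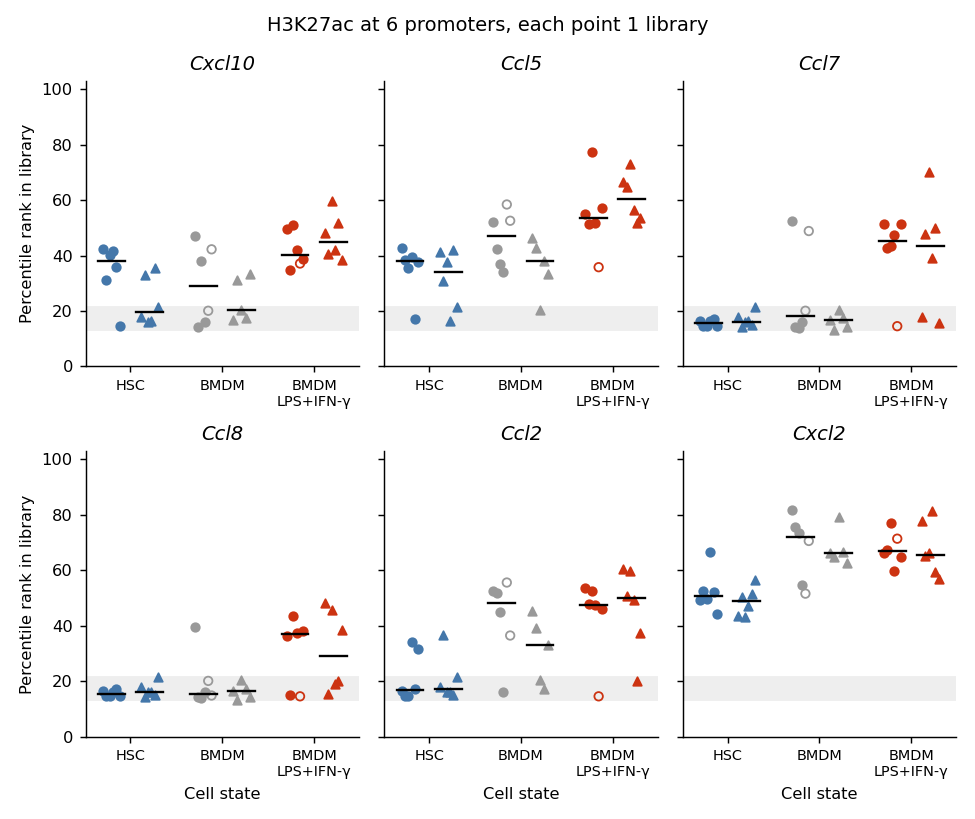
H3K27ac promoter rank (percentile within the library, linear axis) in every library for members named in the stimulation comparison. Circles are control and triangles diabetic libraries, open symbols the 3 control BMDM libraries in doubt, black bars medians and the grey band the range of the rank of genes with no peak; for Cxcl10 all 12 stimulated libraries lie at 34.8 or above, while 6 of 11 unstimulated libraries lie in the band.

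Split by disease, the stimulation contrast called 3 members in diabetic BMDM, where 0.990% of genes were called higher and 1.36% lower, and 0 of 46 members and 0 genes in control BMDM (limma; 4 members had an unadjusted p under 0.05). Among those in diabetic BMDM were Ccl5 (24.8 points, adjusted p = 0.0208) and Cxcl10 (23.1 points, adjusted p = 0.0251). In the test of the difference between diabetic and control BMDM itself, no member or gene passed for either mark. The 3 libraries in doubt are all control; without them 4 members were called in diabetic and 0 in control BMDM, and again no member passed the test of the difference.

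Cxcl9, induced with Cxcl10 and sharing the receptor Cxcr3, had no peak within 1000 bp of its start sites in any list, and its nearest peaks in the stimulated libraries lay at a start site of Art3, 3748 bp from that of Cxcl9, so they cannot be assigned to either gene. The nearest H3K27ac peak was 3503 to 3770 bp from the outermost start site (median 3596) in all 12 stimulated libraries and within 5000 bp in 7 of 11 unstimulated and 11 of 12 HSC libraries. Windows of 1000 bp there, chr5:92331001-92333000 over an exon of Art3 (GRCm38), differed by 26.4 points with stimulation (adjusted p = 0.0563). With promoters of 5000 bp, a width chosen after the values were seen, 6 members were called higher, against 1.22% of genes called higher and 1.16% lower. Beside Ccl5, Ccl7 and Cxcl10 these were Ccr7 (18.4 points, adjusted p = 0.00145), Ccl1 (20.1 points, adjusted p = 0.00781) and Cxcl9 (20.6 points, adjusted p = 0.00891, from the peak at the Art3 start site). For Ccl1, 0 of 12 stimulated libraries had a peak within 5000 bp of the outermost start site, the nearest being 21347 bp away. The Ccl1 call thus rests on peaks near another of its start sites. A window past the 3′ end of Ccl1 is given below, and its part in this call was not tested. Ccr2, the monocyte receptor for Ccl2, stayed without a peak within 5000 bp in any library, the nearest being 5204 bp away.

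**Figure D3:**
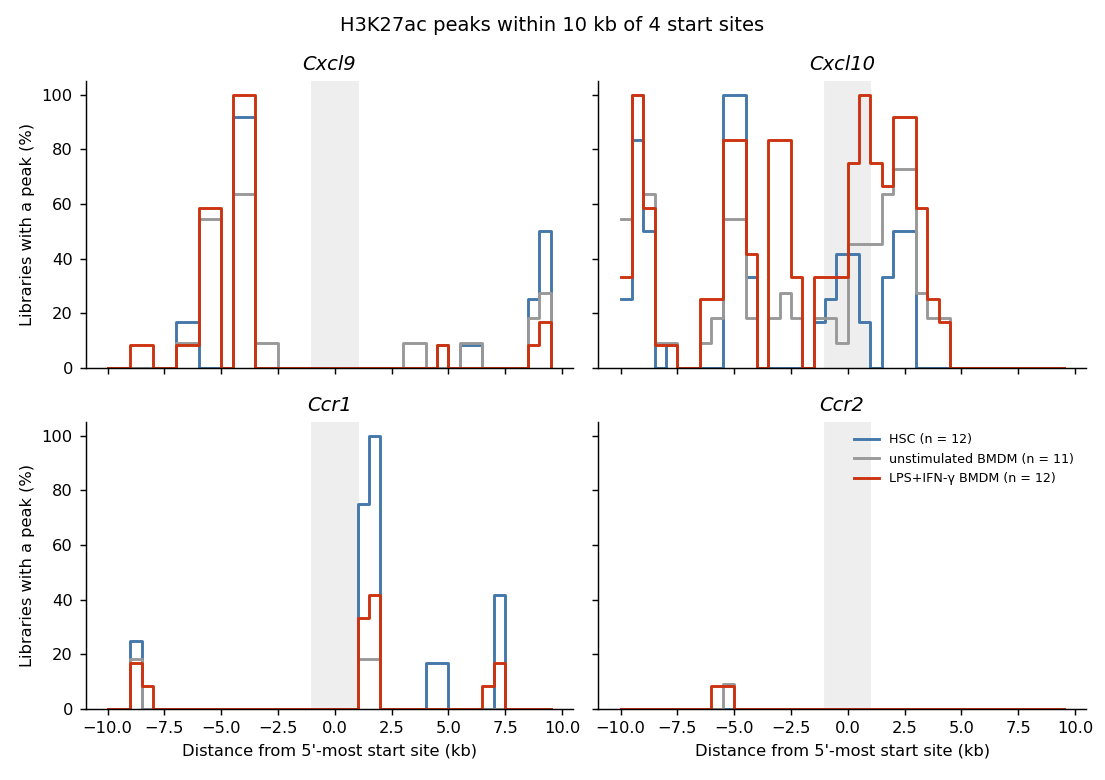
Share of libraries of each cell state with an H3K27ac peak in bins of 500 bp (percent, linear axis) up to 10 kb either side of the outermost start site, in the direction of transcription, with the 1000 bp promoter in grey. Cxcl9 and Ccr1 are empty inside the grey band with peaks beside it; for Cxcl10 peaks over the band were found in 12 of 12 stimulated and 5 of 11 unstimulated libraries.

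H3K4me3 did not pass the test at any member or at any gene with stimulation (limma, 0% called; 5 members had an unadjusted p under 0.05, and Fisher's exact test on the presence of a peak also called 0). Ccl5 had the smallest p: its rank was 13.5 to 38.1 (median 31.2) in unstimulated and 17.3 to 84.9 (median 44.5) in stimulated BMDM, a difference of 18.4 points (adjusted p = 0.408). Peaks over Cxcl10 were listed in 3 of 11 and 7 of 12 libraries (11.8 points, adjusted p = 0.802). The lists of both Ccl5 and Cxcl10 therefore held H3K4me3 in more stimulated than unstimulated libraries, in numbers that did not pass.

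HSC were compared with unstimulated BMDM to ask which chemokine genes carry the marks before and after macrophage differentiation. H3K27ac was higher in HSC at 9 members and lower at 8, against 15.5% of all genes higher and 14.9% lower, or 17 of 46 members. Without the 3 libraries in doubt 9 and 8 were again called (14.6% and 14.2% of genes), with Cxcl5 lost and Ccr4, a T cell receptor for Ccl17 and Ccl22, gained (−11.4 points, adjusted p = 0.0184). The members lower in HSC were the ligands Cxcl16, Cxcl14, Cxcl1, Cxcl2, Cxcl3, Cxcl5 and Ccl2 and the receptor Ccr10. Those higher were the receptors Ccr7, Ccr9, Cxcr2 and Cxcr5, the atypical receptor Ackr1 and the ligands Ccl17, Ccl19, Ccl27a and Xcl1.

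Cxcl16 ranked 45.2 to 64.4 (median 57.6) in HSC and 77.5 to 99.6 (median 94.9) in unstimulated BMDM, with no overlap, and the difference was −36.9 points (SE 2.71, adjusted p = 1.33e-13). A peak was present in every library of both, so what differed was its place in the ranking; the promoter is shared with Zmynd15. Cxcl14, a ligand of epithelia and macrophages, was near background in HSC at 14.7 to 31.0 (median 16.8, peaks in 3 of 12) and at 47.3 to 62.5 (median 53.4, peaks in 11 of 11) in BMDM, a difference of −33.6 points (SE 2.48, adjusted p = 1.41e-13). These groups did not overlap either, and neither did the stimulated BMDM, at 41.5 to 53.4, overlap HSC. Ccr10, a skin-homing receptor whose promoter overlaps that of Cntnap1, ranked 14.7 to 48.4 (median 42.2) in HSC and 56.4 to 77.6 (median 66.6) in BMDM, and the difference was −31.2 points (SE 4.29, adjusted p = 3.76e-07); with promoters of 500 bp it did not pass (adjusted p = 0.172).

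Of the 5 CXC ligands in the chromosome 5 cluster, the neutrophil attractants Cxcl1, Cxcl2, Cxcl3 and Cxcl5 were lower in HSC, and Cxcl15 had no promoter peak. Cxcl1 ranked 21.6 to 50.7 (median 40.3) in HSC and 42.9 to 66.0 (median 61.5) in BMDM, a difference of −20.6 points (SE 2.91, adjusted p = 6.65e-07). Cxcl2 differed by −17.4 points (adjusted p = 0.000132), Cxcl3 by −8.46 (adjusted p = 0.0118) and Cxcl5 by −8.78 (adjusted p = 0.0220), all of them marked in 11 or 12 of 12 HSC libraries. Cxcl5 lost its call without diabetic HSC replicate 6 or diabetic unstimulated replicate 6, and without the 3 libraries in doubt. Ccl2 was marked in 3 of 12 HSC and 8 of 11 BMDM libraries, at medians of 16.8 and 39.1 and a difference of −15.9 points (adjusted p = 0.0111).

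Ackr1, an atypical receptor also known as the Duffy antigen receptor and made by erythroid cells and venules, had an H3K27ac peak in 12 of 12 HSC, 1 of 11 unstimulated and 0 of 12 stimulated BMDM libraries. Its rank was 34.3 to 61.5 (median 44.5) in HSC and 13.2 to 28.6 (median 16.6) in unstimulated BMDM, with no overlap, and the difference was 29.1 points (SE 2.97, adjusted p = 5.35e-10). Ccr7 ranked 36.2 to 50.7 (median 42.8) in HSC, with a peak in each of 12, and 13.2 to 20.3 in unstimulated BMDM, with 0 of 11, a difference of 26.1 points (SE 3.12, adjusted p = 2.19e-08). For both genes every HSC library stood above every unstimulated BMDM library. RefSeq promoters of Cxcl14 (chr13:56296502-56296801, minus strand) and Ackr1 (chr1:173333454-173333753, minus strand, around a start site 247 bp from the outermost GENCODE one), both GRCm38.p6, are shown as the members with a promoter entry that moved furthest in each direction. Capitals in Cxcl14 mark TTCNNNGAA at −191 and TTTCNNTTT at −171 on either strand, and Ackr1 held none of the 4 motifs. Cxcl16 is named without sequence.
Cxcl14: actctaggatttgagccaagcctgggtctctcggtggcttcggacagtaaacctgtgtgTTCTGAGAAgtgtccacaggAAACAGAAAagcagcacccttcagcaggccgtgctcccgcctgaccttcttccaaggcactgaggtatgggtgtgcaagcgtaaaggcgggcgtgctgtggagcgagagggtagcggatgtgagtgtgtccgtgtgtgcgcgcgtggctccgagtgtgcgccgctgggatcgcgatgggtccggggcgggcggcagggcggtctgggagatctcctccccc
Ackr1: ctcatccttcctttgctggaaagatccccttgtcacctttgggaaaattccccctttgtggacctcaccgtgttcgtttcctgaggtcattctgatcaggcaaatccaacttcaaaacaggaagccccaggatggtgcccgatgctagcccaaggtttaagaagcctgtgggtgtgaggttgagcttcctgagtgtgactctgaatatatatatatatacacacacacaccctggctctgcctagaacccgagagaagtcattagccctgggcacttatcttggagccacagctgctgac

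Of the other members higher in HSC, Ccr9 was marked everywhere and ranked 64.3 to 80.4 (median 71.9) against 45.4 to 61.2 (median 54.6), a difference of 17.1 points (adjusted p = 5.50e-07) at a promoter shared with Slc6a20a. Cxcr2, the neutrophil receptor for Cxcl1 and Cxcl2, had a peak in 9 of 12 HSC and 1 of 11 BMDM libraries (16.0 points, adjusted p = 0.00238). Cxcr5, which brings B cells and helper T cells into follicles, differed by 14.0 points (adjusted p = 0.00836), and Xcl1, a ligand made by T and NK cells, by 12.0 points (adjusted p = 0.00560). Ccl17, Ccl19 and Ccl27a differed by 13.2, 11.1 and 10.1 points (adjusted p = 0.00968, 0.00127 and 0.000738); Ccl19 and Ccl27a lie among near-identical copies on chromosome 4, where short reads are hard to place. Members that did not pass were Ccl3 (12.3 points, adjusted p = 0.1105), Ccl4 (0.59, adjusted p = 0.954), Ccl5 (−7.75, adjusted p = 0.151), Cxcl10 (2.13, adjusted p = 0.718), Cxcl12 (2.85, adjusted p = 0.609), Cx3cl1 (0.76, adjusted p = 0.884), Cxcr4 (6.58, adjusted p = 0.267) and Ackr3 (−0.66, adjusted p = 0.917).

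For H3K27ac, markers of some other cell types were also higher in HSC. H3K27ac was higher in HSC than in unstimulated BMDM at 4 of 4 erythroid genes (Klf1, Epor and Hba-a1 among them), whose mean rank was 55.9 to 75.1 in HSC and 35.2 to 45.0 in BMDM. The same held for 3 of 4 T cell genes (Cd247, Lck and Cd3d, mean rank 40.8 to 51.3 against 29.3 to 44.0), 2 of 4 dendritic cell genes (Zbtb46 and Flt3, 51.6 to 58.4 against 35.8 to 51.5) and 1 of 4 neutrophil genes tested (Mpo; mean rank of the 6 listed 26.5 to 41.1 against 17.3 to 35.2). Of 4 B cell genes 0 passed (21.6 to 48.4 against 17.9 to 40.7). For H3K4me3, 0 of 4 genes were called higher in HSC in each of the erythroid, T cell, neutrophil and B cell lists. Klf1 was called lower in HSC (−15.3 points, limma adjusted p = 0.0288). Of 4 dendritic cell genes, Zbtb46 was called higher for H3K4me3 and Itgax and Ciita lower. The part of such cells in the values of Ackr1, Ccr7, Ccr9, Cxcr2, Cxcr5 and Xcl1 was not tested.

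**Figure D4:**
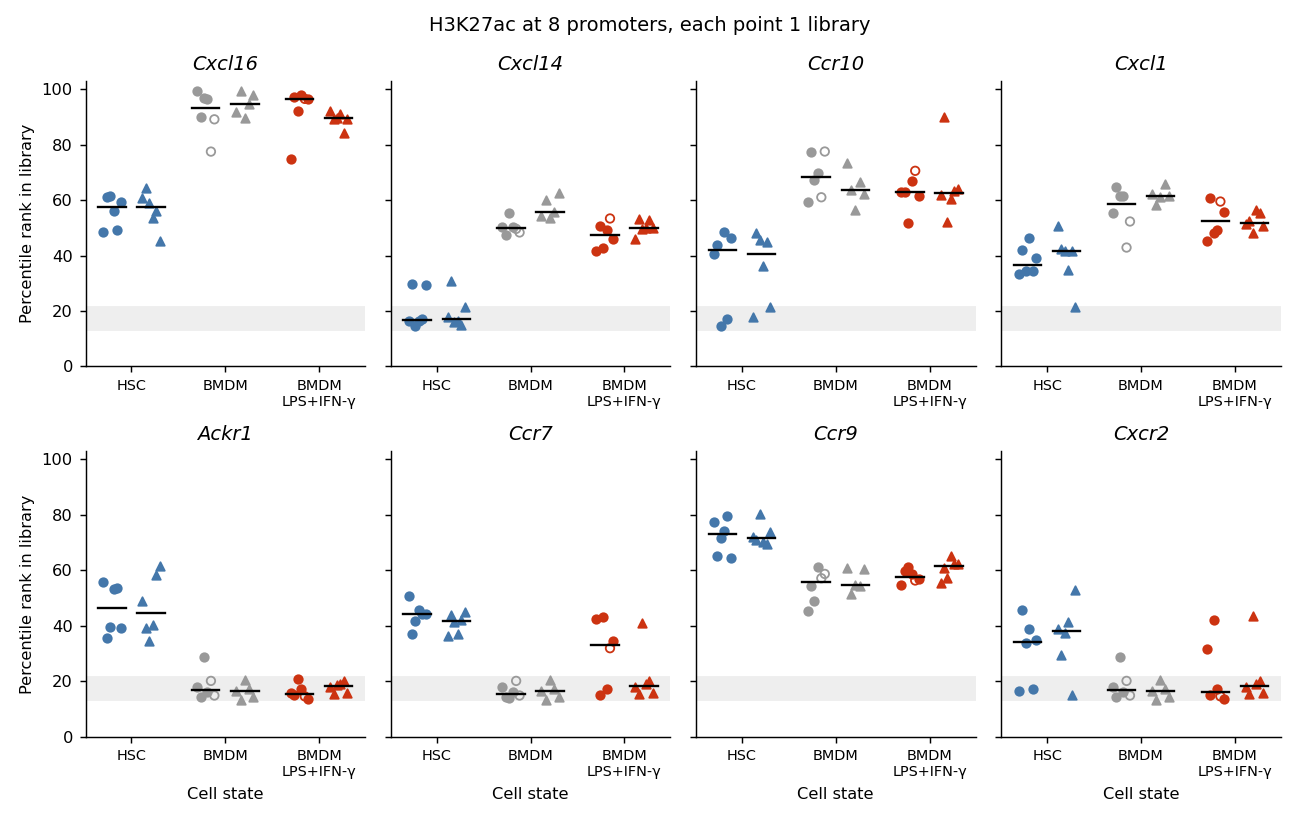
H3K27ac promoter rank (percentile within the library, linear axis) in every library for members called between HSC and unstimulated BMDM, with the same symbols as in the plot of stimulation. For Cxcl16 and Cxcl14 every HSC library lies below every unstimulated BMDM library, and for Ackr1 and Ccr7 every HSC library lies above them.

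Within 5000 bp of the start sites 23 members were called (14 higher and 9 lower in HSC, against 15.6% and 15.5% of genes), and they included a pair with no promoter peak. Ccr1, a monocyte and progenitor receptor for Ccl3 and Ccl5, had an H3K27ac peak 1307 to 1630 bp from its start site (median 1452.5) in 12 of 12 HSC libraries, and within 5000 bp in 2 of 11 unstimulated and 5 of 12 stimulated BMDM libraries. The difference was 21.2 points (adjusted p = 2.75e-05). Cxcl15, the member of the chromosome 5 CXC cluster with no promoter peak, was higher in HSC by 16.7 points (adjusted p = 0.00249), with a peak within 5000 bp in 10 of 12 HSC and 2 of 11 unstimulated BMDM libraries. Cxcl10 (12.0 points, adjusted p = 0.00509) and Ackr3 (9.91 points, adjusted p = 0.0402), which did not pass at 1000 bp, were called higher in HSC at this width. H3K4me3 at Cxcl10 was also called higher in HSC within 5000 bp (13.1 points, adjusted p = 0.0205).

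H3K4me3 differed at 4 of 44 members between HSC and unstimulated BMDM, a smaller share than the 2936 of 17652 genes called. Cxcr2 (9.23 points, adjusted p = 0.0201) and Ackr1 (11.03 points, adjusted p = 0.0340) were higher in HSC, where 7.14% of genes were, and Ccl6 (−10.6 points, adjusted p = 0.0254) and Cxcl1 (−12.3 points, adjusted p = 0.0287) were lower, where 9.49% were. Cxcl1 had a peak in 8 of 12 HSC and 11 of 11 BMDM libraries, with ranks of 17.6 to 57.3 (median 37.8) and 39.9 to 54.7 (median 44.6). Ccl6, a monocyte attractant, had one in 0 of 12 and 8 of 11, Ackr1 in 7 of 12 and 4 of 11 and Cxcr2 in 3 of 12 and 0 of 11, and in all 4 genes the ranges overlapped. Ranks of unmarked genes also differed, at 12.9 to 29.6 in HSC and 11.2 to 16.2 in BMDM, and their part in the 2 higher calls was not tested. Each of the 4 calls was lost without at least 1 library: Cxcr2 without control HSC 2, Ccl6 without diabetic unstimulated 2, Cxcl1 without control HSC 5 or 6 or diabetic HSC 1, and Ackr1 without control HSC 3, 4 or 5, control unstimulated 1 or 5, or diabetic unstimulated 1, 2, 4 or 5. Without control HSC 5 or diabetic unstimulated 2 the count was 2, and without the 3 libraries in doubt it was 3, with Ackr1 (adjusted p = 0.0622) and Cxcl1 (adjusted p = 0.0728) lost and Ccl24 gained (−15.9 points, adjusted p = 0.0240).

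Runs of at least 3 members within 500000 bp of each other gave 6 clusters, each read with 20000 bp either side. H3K27ac in them took up 1.57 ± 0.158 per mille of the peak length of an HSC library (SD, n = 12) and 1.01 ± 0.125 of an unstimulated BMDM library (SD, n = 11), a log2 difference of 0.64 (permutation within disease groups, two-sided, adjusted p = 4e-05 over 4 tests, resting on a p of 1e-05, the smallest that 100000 permutations can give). The ranges were 1.37 to 1.81 and 0.865 to 1.28 and did not overlap. After stimulation the share was 1.07 ± 0.135 (SD, n = 12), a log2 difference of 0.09 (adjusted p = 0.305).

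The clusters differed in both directions. In HSC the share was higher over Ccl22, Cx3cl1 and Ccl17 on chromosome 8 (log2 difference 1.28, adjusted p = 0.00012), where the covered length had a median of 15.7 kb against 7.77 kb in unstimulated BMDM. It was also higher over Ccl5 to Ccl4 on chromosome 11 (1.04, adjusted p = 0.00499, 13.7 against 7.18 kb). The chromosome 4 cluster of Ccl27a, Ccl19 and Ccl21 copies differed by 0.81 (adjusted p = 0.00012, 32.1 against 17.7 kb), where reads are hard to place. It was lower in HSC over the CXC ligands Cxcl5 to Cxcl2 on chromosome 5 (−0.76, adjusted p = 0.00024), with 4.58 kb covered against 7.83 kb. These p-values are permutation tests adjusted over 24. In each of these clusters the ranges of the share in HSC and unstimulated BMDM overlapped.

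Stimulation raised the H3K27ac share of the monocyte attractant cluster Ccl2 to Ccl1 on chromosome 11, which holds Ccl2, Ccl7, Ccl11, Ccl12, Ccl8 and Ccl1. The share was 0.0390 ± 0.0284 per mille in 11 unstimulated and 0.101 ± 0.0524 per mille in 12 stimulated libraries (SD), and the median covered length was 2.41 and 6.20 kb. The log2 difference was 1.51 (permutation, adjusted p = 0.00508), and the ranges, 0.00702 to 0.0981 and 0.0201 to 0.211, overlapped. It was 1.94 without the 3 libraries in doubt and 1.89 with the top 20000 peaks of each list, where it did not pass (permutation, adjusted p = 0.258). The other 5 clusters did not pass with stimulation (adjusted p from 0.0967 to 0.522). For H3K4me3 the chromosome 4 cluster alone passed, with a share higher in HSC by 0.41 (permutation, adjusted p = 0.00318). Its median covered length was shorter in HSC, at 19.8 against 34.6 kb, so it was higher only relative to the whole peak length of the library. All clusters together differed in H3K4me3 share by 0.15 (permutation, adjusted p = 0.191) between cell states and by 0.0027 with stimulation (adjusted p = 0.954).

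**Figure D5:**
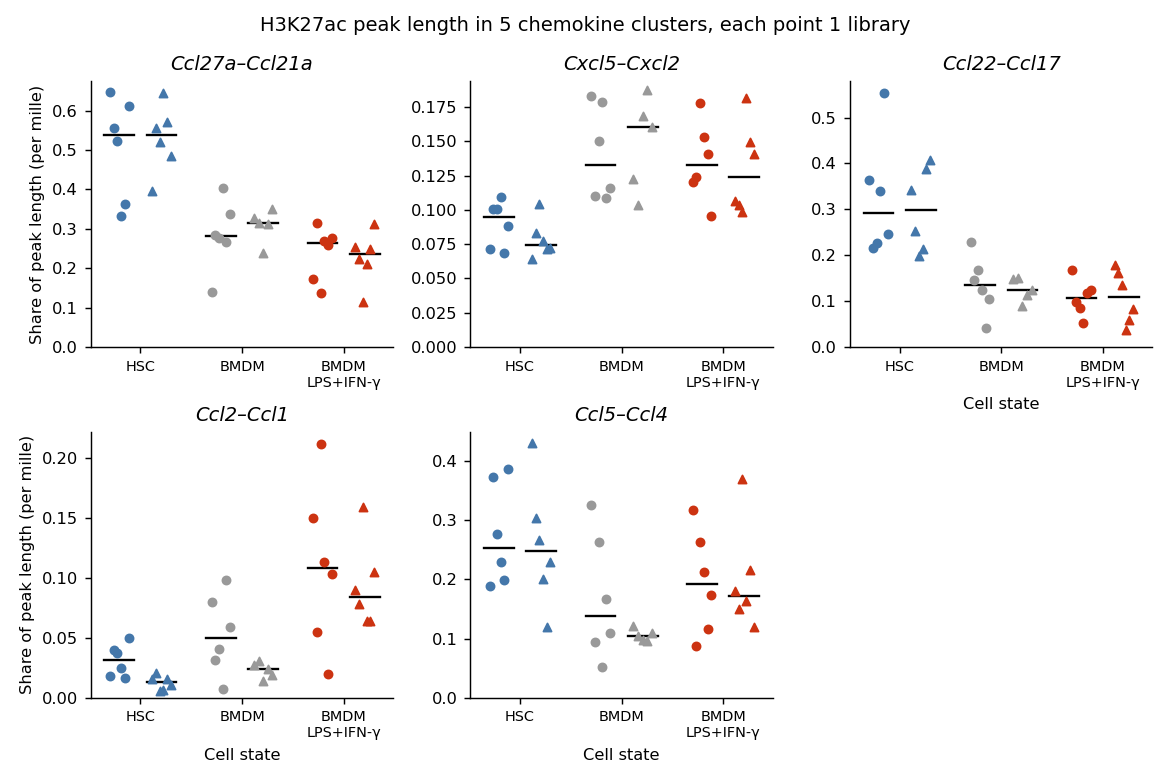
H3K27ac peak length in 5 of the 6 clusters as per mille of the library's whole peak length, by library (circles control, triangles diabetic, bars medians). Unstimulated and stimulated BMDM differ past the test in Ccl2-Ccl1 alone. The HSC median lies above that of unstimulated BMDM in the chromosome 4 cluster, Ccl22-Ccl17 and Ccl5-Ccl4 and below it in Cxcl5-Cxcl2. In each of these clusters the ranges overlap.

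In 1000 bp windows held by at least 6 libraries, H3K27ac was called with stimulation at 2 of 365 windows in the clusters. Genome-wide, 0.455% of windows were called higher and 0.121% lower. With all libraries kept, the share called in the clusters was thus no larger than that of all windows. The window that fell lies in an exon of Cx3cl1, the membrane-bound fractalkine (chr8:94781001-94782000), was held by 11 of 11 unstimulated and 8 of 12 stimulated libraries and differed by −28.2 points (adjusted p = 0.0167). The other, chr11:82175001-82176000, lies just past the 3′ end of Ccl1, a T cell chemokine, was held by 1 of 11 and 8 of 12 libraries and differed by 32.3 points (adjusted p = 0.0471). Without control LPS+IFN-γ replicate 5 there were 11 such windows, without control unstimulated replicate 1 or 6 there were 5, without diabetic LPS+IFN-γ replicate 1 there were 4, and without all 3 libraries in doubt 14. 1 window was left without any 1 of the HSC libraries other than diabetic HSC 3, without control unstimulated 3 or 4, diabetic unstimulated 2, control LPS+IFN-γ 1 or 6, or diabetic LPS+IFN-γ 3.

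Between HSC and unstimulated BMDM, 136 of the 365 H3K27ac windows were called, 113 higher in HSC and 23 lower, against 13.5% and 11.5% of all windows. Among the higher ones were windows of chromosome 4 (37 of 93 windows), Ccl22-Ccl17 (27 of 55) and Ccl5-Ccl4 (22 of 77), while Cxcl5-Cxcl2 had 11 of 30 lower and 2 higher. Outside chromosome 4, the window with the smallest p was chr8:94734001-94735000, 11.1 kb upstream of Ccl22, a dendritic cell and macrophage ligand of Ccr4, held by 12 of 12 HSC and 5 of 11 BMDM libraries (44.1 points, adjusted p = 8.70e-06). For H3K4me3, 18 of 296 windows were called, 11 higher and 7 lower in HSC (2.74% and 3.08% of all windows), and 10 of the 11 lie on chromosome 4. With stimulation 0 of 296 H3K4me3 windows were called (limma; 20 had an unadjusted p under 0.05), against 0.000355% of all windows.

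Cxcl9 and Cxcl10 are 2 members and did not make a cluster, and their surroundings were read after their values were seen. An H3K4me3 window 4.61 kb upstream of Cxcl10 in an intron of Art3 (chr5:92353001-92354000) was held by 9 of 12 HSC libraries and by 0 of 11 unstimulated and 0 of 12 stimulated BMDM libraries, a difference of 46.1 points (adjusted p = 3.45e-06). H3K27ac over the same window was held by 12 of 12, 6 of 11 and 10 of 12 libraries and was 34.7 points higher in HSC than in unstimulated BMDM (adjusted p = 0.00101).

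Diabetic and control libraries were compared within each cell state. No member passed in HSC, unstimulated BMDM or LPS+IFN-γ BMDM for either mark, and neither did any gene (limma, 0% called in each of 6 comparisons), nor did any member without the 3 libraries in doubt; between 0 and 3 members had an unadjusted p under 0.05. For H3K27ac, members with the smallest p included Ccl19 in HSC (diabetic minus control −8.98 points) and Ccr6 in stimulated BMDM (−12.9). Others were Cxcl10 in HSC (−10.9) and Ccl6 in unstimulated BMDM (−12.5). For H3K4me3 they were Cxcr2 (−10.99) and Ccl21a (9.54) in HSC, Ccl24 (−17.0) and Ackr3 (−10.6) in unstimulated BMDM, and Cxcl10 (10.1) and Ccl2 (9.69) in stimulated BMDM. Adjusted p-values of these 10 were 0.849 or above. In the 1000 bp windows of the clusters, 0 of 365 for H3K27ac and 0 of 296 for H3K4me3 passed in each of these comparisons (limma). Genome-wide, of 283780 H3K27ac windows 59 were called in HSC, 18 in unstimulated and 2 in LPS+IFN-γ BMDM. Of 282042 H3K4me3 windows 10, 0 and 3 were called in the same order.

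Of 29 genes that carry or modulate chemokine signals, 27 were tested for each mark. With stimulation H3K27ac rose at Rgs2, a brake on G proteins (9.85 points, adjusted p = 0.0195), and at Ccrl2, a chemokine-receptor-like protein that binds chemerin (14.3 points, adjusted p = 0.0476), and fell at Arrb2, which desensitizes receptors (−11.4 points, adjusted p = 0.0323), against 1.10% of all genes higher and 1.21% lower. Between HSC and unstimulated BMDM 4 were higher in HSC and 9 lower, against 15.5% and 14.9% of all genes. Among those lower with the largest statistics were the PI3K-gamma adaptor Pik3r5 (−22.3 points, adjusted p = 1.11e-05) and the engulfment and motility gene Elmo1 (−16.3, adjusted p = 1.43e-05). The platelet chemokines Pf4 (−13.5, adjusted p = 0.00857) and Ppbp (−10.2, adjusted p = 0.0352) were lower in HSC, and the fractalkine receptor Cx3cr1 was higher (11.2, adjusted p = 0.0384). H3K4me3 was called at 0 of 27 with stimulation (limma) and at 5 between cell states, all lower in HSC (Gnai3, Dock2, Pik3r5 and Vav1 among them), against 7.14% of all genes higher and 9.49% lower.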

How the data were processed

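ChIP-seq of H3K27ac and H3K4me3 was read in 70 libraries; the 36 inputs have no list here. Per the submitters' processing notes, which give no roles or order, the tools were Trim Galore 0.3.3, cutadapt 1.8, FastQC 0.11.3, Bowtie2 2.2.6, Picard 2.18.14 and 2.19.2, bedtools 2.19.1 and MACS2 2.2.7.1, with 50 bp single reads and the build GRCm38 (mm10). In the deposited lists each peak has a score, a fold ratio over background, a −log10 p and a −log10 q, given by the authors' peak caller for each library against its own input; lists stop near a q of 0.05, so weaker enrichment is not seen. Lists were compared only as ranks or shares within a library, because depth is unknown.

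Promoters reached 1000 bp either side of 93513 start sites (GENCODE M21). Ranks were fitted with limma 3.58.1 in R 4.3.3 (trended empirical Bayes) over 6 groups per mark; stimulation and cell state were averaged over disease. Cluster shares (log2 with a pseudocount of 0.001 per mille) were tested by 100000 permutations within disease groups. In a simulation of the H3K27ac stimulation test on 17373 genes, 200 of them shifted by 2 or 4 within-group SD, 88% were called at the smaller shift and all at the larger. Shifts below 2 SD, the other comparisons and H3K4me3 were not simulated. These shares therefore do not say how often smaller differences, or differences by disease, would be missed. Alternatives are in the closing section.

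The members, marker lists (stem and progenitor, macrophage, activated macrophage, neutrophil, B cell, T cell, erythroid, dendritic cell) and signalling genes were chosen with earlier results of these data known. Named were called members, a list of 19 well-known members, and for each disease comparison the 2 members with the smallest p. Promoter sequences are from the RefSeq table, which has 44 of the 58 members. Results for some genes are not reported here.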

Additional observations from a re-analysis of the deposited data

Results flagged for a closer look

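In each group of 5 or 6 libraries the highest and lowest values were compared with the rest by Dixon's test, which picks out about 1 of 20 groups by chance; it picked out 2 of 36 here. The H3K27ac rank of Ccl7 in control LPS+IFN-γ BMDM was 14.5 in replicate 5, the rank of an unmarked gene, while the other 5 libraries of that group were at 42.9 to 51.5. This is the stimulated library whose label was in doubt, and Ccl8 and Ccl2 also had no promoter peak in it. The H3K4me3 share of peak length in the chemokine clusters was 1.19 per mille in replicate 6 of control unstimulated BMDM and 0.987 to 1.06 in the other 5 libraries of its group.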

How the results depend on the processing

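Of 40 single results for named members and clusters, tried under 1464 alternatives in all, 1412 kept their direction and side of the threshold, 51 kept the direction but no longer passed and 1 reversed, the difference by disease of Ccr6 H3K27ac in LPS+IFN-γ BMDM, which did not pass and was 1.64 with promoters of 500 bp. The 40 include results that did not pass, such as that of Ccr6, so this tally does not measure how well the calls held. Members called for H3K27ac with stimulation, 3, became 1 when ranked by fold, 1 with the top 20000 peaks, 1 with promoters of 500 bp, 6 with 5000 bp and 0 by Fisher's exact test on presence, and 2 to 5 with 1 library left out. Those called between cell states, 17, became 9 with the top 20000 peaks and 3 by Fisher's test. For H3K4me3 the 4 became 1 by fold, 0 with the top 20000, 2 at 500 bp, 0 by Fisher's test and 15 with no filter on genes, which adds members marked in fewer than 3 libraries; leaving out 1 library gave 2 to 5, and for stimulation 0 to 1 (1 without diabetic LPS+IFN-γ replicate 5). H3K27ac windows called with stimulation, 2, became 14 without the 3 control BMDM libraries in doubt and 1 to 11 with 1 library left out, and those between cell states, 136, became 88 when held by 12 libraries and 49 with the top 20000. H3K4me3 windows between cell states, 18, became 6 without the 3 libraries of the same groups and numbers, although the doubt came from H3K27ac, 6 when held by 12 and 10 with the top 20000, and 11 to 22 with 1 left out. The H3K4me3 cluster share between cell states was 0.22 without the extension, now past the threshold, and for stimulation it ran from −0.0234 to 0.0282 with 1 library left out. The causes of these changes were not tested.

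The replicate numbers did not pair the libraries: over 68 same-numbered pairs the correlation of deviations from group means ran from −0.292 to 0.363, and the same-numbered library was the best match in 15 of 68. With a replicate block, 0 H3K27ac windows and 3 members at promoters were called with stimulation, and the Ccl2-Ccl1 share differed by 1.40 (exact sign-flip test, adjusted p = 0.0569); counts at promoters with the block stayed within 1.5 times those without it. Depth is unknown, and peaks weaker than a q of 0.05 are not in the lists.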

Other observations

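Of the 23 H3K27ac windows of the Ccl2-Ccl1 cluster, 1 was higher and 4 were lower in HSC than in unstimulated BMDM, against 13.5% and 11.5% of all windows. An H3K4me3 window 8.61 kb upstream of Cxcl10 in an intron of Art3 (chr5:92357001-92358000) was held by 2 of 12 HSC, 10 of 11 unstimulated and 9 of 12 stimulated libraries (HSC minus unstimulated −26.5 points, limma adjusted p = 0.0472), 4 kb from the window that was held in HSC and in no BMDM library.

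H3K4me3 ranks of Ccl24, an eosinophil attractant, ran from 12.4 to 83.6 in unstimulated BMDM, with peaks in 6 of 11 libraries, and its diabetic minus control difference there was −17.0 points (limma adjusted p = 1). Ccr8, a receptor of regulatory T cells, had H3K4me3 peaks in 2 of 12 HSC and 8 of 11 unstimulated BMDM libraries (−10.3 points, limma adjusted p = 0.0532).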
